A study of Mus musculus with 9 samples.

Results

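The interleukin-6 (IL-6) family and its gp130 receptor were followed in mouse bone marrow-derived macrophages (BMDMs) through 9 genes: the cytokines Il6, Lif, Osm and Il11, the receptor chains Il6ra, Il6st, Lifr and Osmr, and the transcription factor Stat3. Members were the probe sets that the array's annotation gives to 1 of these symbols alone, which made 21 probe sets for 9 genes, of 45037 probe sets and 18193 genes tested. All 9 genes had at least 1 probe set. A probe set is a group of short oligonucleotides that reads 1 transcript or a few, and its value here is a log2 signal after robust multiarray averaging (RMA). Each gene was read from its brightest probe set, and the others are given beside it.

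BMDMs came from young adult BALB/c mice (female, as the study's reporting summary states for all its mice), were grown with M-CSF for 7 days and were then held overnight in medium with 1% FBS and M-CSF. Of the 9 arrays, 3 were of untreated cells, 3 of cells given vehicle (0.1% DMSO) for 1 h and then 2 μg/ml recombinant tenascin-C (TNC) for 6 h, and 3 of cells given 3 μM TAK-242, a small-molecule inhibitor of TLR4 (TLR4i), for 1 h before the same TNC treatment. TNC is an extracellular matrix protein, and TLR4 is a pattern-recognition receptor. No vehicle is named for the untreated cells, and no group received vehicle or TLR4i without TNC. The arrays are labeled as biological replicates, but no source used here ties them to separate mice, so that p values measure the spread between these cultures.

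Cytokines of the IL-6 family signal through gp130, the product of Il6st. IL-6 and IL-11 first bind a receptor of their own and then gather gp130, whereas leukemia inhibitory factor (LIF) and oncostatin M (OSM) bring gp130 together with the LIF receptor or the OSM receptor. The assembled receptors activate Janus kinases (JAKs), which phosphorylate STAT3, and STAT3 induces among other genes its own inhibitor Socs3. In macrophages, Il6 is a classical target of TLR signaling through NF-kB, C/EBP and AP-1 factors.

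The cells carried the markers of macrophages. The macrophage markers Csf1r (14.16 in untreated cells, log2), Adgre1 (13.03) and Lyz2 (14.57) lay near the top of the arrays' range, which ran from 5.44 to 14.69. Over 9 macrophage markers, the mean ran from 12.40 to 12.43 in untreated cells, from 12.50 to 12.57 with TNC and from 12.32 to 12.39 once TLR4i was added. With TNC, Fcgr1 (0.94, called higher), Cd14 (0.47) and Spi1 (0.37) were higher, while Cd68 (-0.25), Itgam (-0.25) and Mertk (-0.2) differed the other way. The mean of 12 endothelial markers was 7.67 in TNC replicate 1 against 7.14 in the other TNC arrays, and it stayed within 6.94 to 6.96 without TNC and within 6.88 to 6.89 once TLR4i was added. The mean of 5 B cell markers was lower with TNC (7.44 to 7.54) than without (7.68 to 7.69) through Ighm (-1.05) and Cd79b (-0.36), while Pax5 (0.20) and Cd79a (0.18) differed the other way. The mean of 7 mast cell and basophil markers was higher with TNC (6.39 to 6.55 as against 6.33 to 6.36), below the array median of 6.72 to 6.74. Of these, Kit was at 6.83, 6.07 and 6.23 in the TNC arrays, and Mcpt8 differed the other way (-0.15). Fibroblast, neutrophil, T cell and dendritic cell means overlapped between untreated and TNC arrays. Even so, the fibroblast mean was highest in TNC replicate 1, at 8.98 against 8.73 and 8.67 in the other TNC arrays. It reached at most 8.83 in untreated and 8.8 in TNC + TLR4i arrays. Some markers of other cells were also bright in untreated cells: the fibroblast markers Col1a2 (13.28) and Col3a1 (11.99) and the B cell marker Ighm (12.21). The mean of 12 fibroblast markers was 8.67 to 8.83 there, and the macrophage marker Mertk was at 8.84. The part of these markers in the results below was not tested. In TNC replicate 1 the transcript of TNC itself was also high, at 9.58 against 8.36 and 8.43 in the other TNC arrays. Values without this array are therefore given for the called members. Tlr4, the receptor TAK-242 acts on, was at 11.29 in untreated, 10.92 in TNC and 11.31 in TNC + TLR4i cells, and the inhibitor acts on the protein, so that this level does not check the treatment. In a mixed culture, fewer cells of a type and less RNA per cell cannot be told apart on such arrays.

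To show where the letters searched lie before a gene that rose (Il6), a gene that fell (Il6ra) and a gene that was not called (Lif), the 250 bases upstream of the start site are printed for these, from RefSeq on GRCm38.p6, 5′ to 3′ on the gene's strand. Of the 9 genes, 8 had such a window (10 windows in all), and Osm had none. The sequence is that of the reference mouse genome, not of the BALB/c cells. Capitals mark matches, on either strand, to the letters searched: GGG, any 4 bases and TCC for NF-kB, TTGCNNAA for C/EBP, TGANTCA for AP-1 and TTCNNNGAA for STAT factors. The Il6 window is chr5:30012864-30013113 on the plus strand, that of Il6ra chr3:89913197-89913446 on the minus strand and that of Lif chr11:4257318-4257567 on the plus strand.
Il6: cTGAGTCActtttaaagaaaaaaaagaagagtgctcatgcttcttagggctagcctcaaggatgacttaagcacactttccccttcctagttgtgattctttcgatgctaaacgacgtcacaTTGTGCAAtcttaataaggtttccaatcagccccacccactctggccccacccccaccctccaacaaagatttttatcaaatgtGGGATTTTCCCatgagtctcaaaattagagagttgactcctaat
Il6ra: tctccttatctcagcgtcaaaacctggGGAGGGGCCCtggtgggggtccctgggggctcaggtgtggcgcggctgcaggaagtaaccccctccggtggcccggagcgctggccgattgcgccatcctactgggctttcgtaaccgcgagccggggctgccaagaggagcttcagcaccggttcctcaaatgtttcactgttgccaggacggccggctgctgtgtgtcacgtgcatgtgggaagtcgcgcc
Lif: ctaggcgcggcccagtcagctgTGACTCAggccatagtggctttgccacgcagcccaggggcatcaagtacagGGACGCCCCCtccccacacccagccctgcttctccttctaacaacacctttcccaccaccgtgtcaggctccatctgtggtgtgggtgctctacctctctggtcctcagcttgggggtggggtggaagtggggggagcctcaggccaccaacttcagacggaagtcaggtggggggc

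The Il6 window held an AP-1 match (TGAGTCA) from base -249 to -243 before the start site and a C/EBP match, TTGTGCAA, from -128 to -121. Its NF-kB letters were matched on each strand at nearly the same place, from -44 to -35 and from -43 to -34, and these overlapping matches make up the single run of capitals nearest to the start. The Lif window also held an AP-1 match (-228 to -222) and an NF-kB match (-177 to -168), and Il6ra held 1 NF-kB match (-223 to -214). Among the Il11 windows, 1 had an AP-1 match at -98 to -92, while no letters searched were found in the windows, not printed here, of Il6st and Lifr, which also fell with TNC, or of Osmr and Stat3. Over 32851 windows of the same length, 16.5% held the NF-kB letters, 9.56% the C/EBP, 6.75% the AP-1 and 7.02% the STAT letters, and none of the members' windows held the STAT letters. A match describes letters and does not show that a factor binds there.

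After TNC, the cytokine Il6 rose, the receptor genes Il6ra, Lifr and Il6st fell, and Lif, Osm, Il11, Osmr and Stat3 were not called. A gene was called where limma's adjusted p (Benjamini-Hochberg over 45037 probe sets) was under 0.05 and the change was at least 1.5-fold. Of the 9 genes 1 was called higher and 3 lower, where 3.74% of all genes were called higher and 4.05% lower. Of the 21 probe sets 1 was called higher and 4 lower (2.89% and 2.84% of all probe sets). The median log2 difference was 0.11 over the 9 genes and 0.0063 over all genes.

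**Figure D1:**
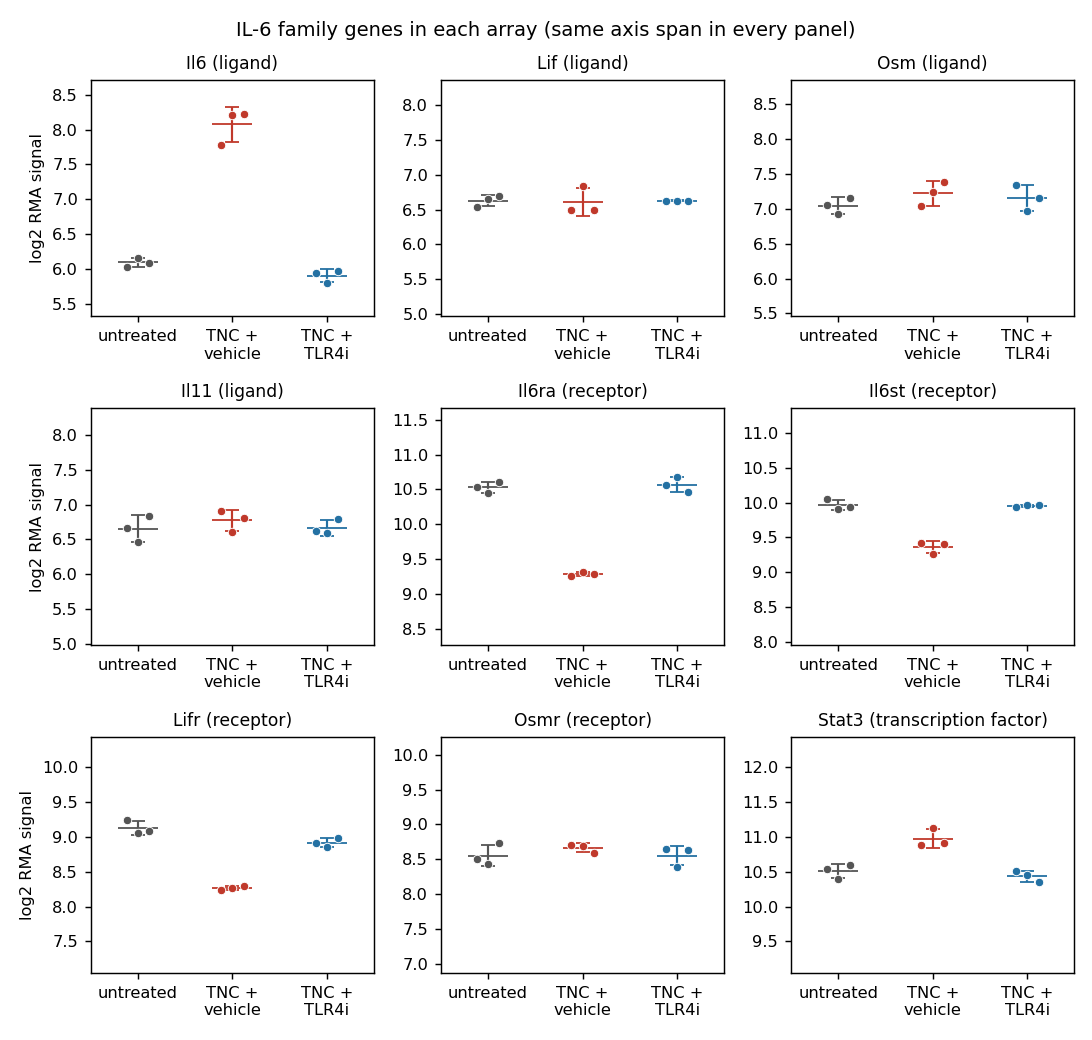
Log2 RMA signal of the brightest probe set of each of the 9 genes in the 3 groups; dots are the 3 arrays of a group, bars the mean and SD, and every panel spans the same number of log2 units. Il6 is high, and Il6ra, Il6st and Lifr are low, in all 3 TNC + vehicle arrays, while Lif, Osm, Il11 and Osmr overlap between groups.

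Il6 encodes IL-6 itself. Its log2 signal was 6.03, 6.16 and 6.09 in the untreated arrays, 7.78, 8.21 and 8.23 with TNC and 5.94, 5.80 and 5.97 with TNC + TLR4i. The TNC arrays lay above all others, with replicate 1 the lowest of them, and the TNC + TLR4i arrays lay just below the untreated ones. Il6 rose 3.94-fold with TNC (log2 difference 1.98 ± 0.11 SE, 95% CI 1.74 to 2.22; limma adjusted p = 1.44e-07), and by 2.13 on the log2 scale without TNC replicate 1. The untreated values are near the bottom of the arrays' range, where array folds are understated.

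The other cytokines gave no called difference. Lif encodes a factor that signals through gp130 and the LIF receptor, and its brightest probe set read 6.54, 6.65 and 6.69 in untreated, 6.49, 6.84 and 6.50 in TNC and 6.62, 6.63 and 6.63 in TNC + TLR4i arrays. The groups overlapped, and the TNC difference was -0.01 (95% CI -0.22 to 0.20), at a signal below the array median, where a change in the transcript may not be read. Osm, whose product brings gp130 together with the OSM receptor, read 7.06, 6.92 and 7.16 in untreated arrays. In TNC arrays it read 7.04, 7.24 and 7.39, and in TNC + TLR4i arrays 7.35, 6.97 and 7.16. Its groups also overlapped, with a TNC difference of 0.18 (CI -0.03 to 0.39; limma adjusted p = 0.23). Il11 ran from 6.46 to 6.84 without treatment, from 6.61 to 6.91 with TNC and from 6.59 to 6.80 with TLR4i and TNC, with a TNC difference of 0.12 (CI -0.11 to 0.35; adjusted p = 0.48). Lif and Osm are neighbors on mouse chromosome 11, with 0 protein-coding genes between them. The second Lif probe set, 1450160_at, had a TNC difference of 0.01.

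Il6ra encodes the receptor that binds IL-6. Its log2 signal was 10.53, 10.44 and 10.61 in untreated, 9.25, 9.31 and 9.29 in TNC and 10.56, 10.68 and 10.46 in TNC + TLR4i arrays. All TNC arrays were below all others by more than 1 log2 unit, and the other groups overlapped. Il6ra fell 2.37-fold with TNC (-1.24 ± 0.07 SE, 95% CI -1.39 to -1.09; limma adjusted p = 1.45e-07), to 42.2% of the untreated signal, and the difference was -1.23 without TNC replicate 1. The second probe set, 1422270_a_at, read 9.43, 9.33 and 9.36 in untreated, 8.62, 8.61 and 8.63 in TNC and 9.31, 9.32 and 9.23 in TNC + TLR4i arrays. It also fell, by 0.75 on the log2 scale (1.68-fold; 95% CI -0.89 to -0.61; adjusted p = 4.34e-06). The intervals of the Il6ra probe sets do not overlap, so that the size of the fall, though not its direction, depends on which was read.

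Lifr encodes the LIF receptor, a partner of gp130. Its log2 signal was 9.24, 9.06 and 9.09 in untreated, 8.24, 8.26 and 8.30 in TNC and 8.92, 8.85 and 8.99 in TNC + TLR4i arrays. No groups overlapped, and the TNC + TLR4i arrays lay between the others. Lifr fell 1.82-fold with TNC (-0.86 ± 0.07 SE, 95% CI -1.02 to -0.71; limma adjusted p = 3.35e-06), and by 0.85 on the log2 scale without TNC replicate 1. The dimmer probe sets 1425107_a_at (-0.51; adjusted p = 0.00163) and 1450207_at (-0.16; adjusted p = 0.139) were not called, and with the mean of the 3 probe sets the Lifr difference of -0.51 was no longer called.

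Il6st encodes gp130, the chain that the whole family shares. Its brightest probe set, 1437303_at, read 10.05, 9.91 and 9.93 in untreated, 9.42, 9.26 and 9.40 in TNC and 9.94, 9.97 and 9.96 in TNC + TLR4i arrays. The TNC arrays were the lowest, and the other groups overlapped. Il6st fell 1.52-fold with TNC (-0.60 ± 0.07 SE, 95% CI -0.76 to -0.44; limma adjusted p = 8.03e-05), only just past the fold threshold, and by 0.63 on the log2 scale without TNC replicate 1. Of the other 3 probe sets none was called, with differences of -0.25 (1460295_s_at; adjusted p = 0.02), -0.18 (1452843_at; 0.0937) and -0.01 (1421239_at; 0.926). The Il6st call was lost with the mean of the 4 probe sets (-0.26), after cyclic loess (-0.54), without untreated replicate 1 (-0.56) and without TNC replicate 2 (-0.55), while the adjusted p stayed at or below 0.00278 under all 18 alternatives.

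Osmr encodes the OSM receptor and lies next to Lifr on mouse chromosome 15, with 0 protein-coding genes between them. Unlike Lifr it was not called: 8.50, 8.43 and 8.73 in untreated, 8.71, 8.69 and 8.59 in TNC and 8.64, 8.39 and 8.63 in TNC + TLR4i arrays, all overlapping. The TNC difference was 0.11 (95% CI -0.07 to 0.29; adjusted p = 0.414), and its other probe sets differed by 0.08 (1418675_at) and 0.01 (1459217_at). The intervals of Osmr and Lifr do not overlap, and the difference between the genes was not tested.

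Stat3 encodes the transcription factor that gp130 activates by phosphorylation, which an array of RNA does not read. Its log2 signal was 10.54, 10.40 and 10.59 in untreated, 10.89, 11.13 and 10.91 in TNC and 10.51, 10.45 and 10.35 in TNC + TLR4i arrays. The TNC arrays were the highest, without overlap. The difference of 0.46 ± 0.08 SE passed the p threshold (95% CI 0.28 to 0.64; limma adjusted p = 0.00151) but, at 1.38-fold, not the fold threshold. Probe set 1460700_at, nearly as bright, differed by 0.21 (adjusted p = 0.0401), and the dim 1459961_a_at (0.20; 0.3) and 1424272_at (0.12; 0.643) passed neither threshold.

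**Figure D2:**
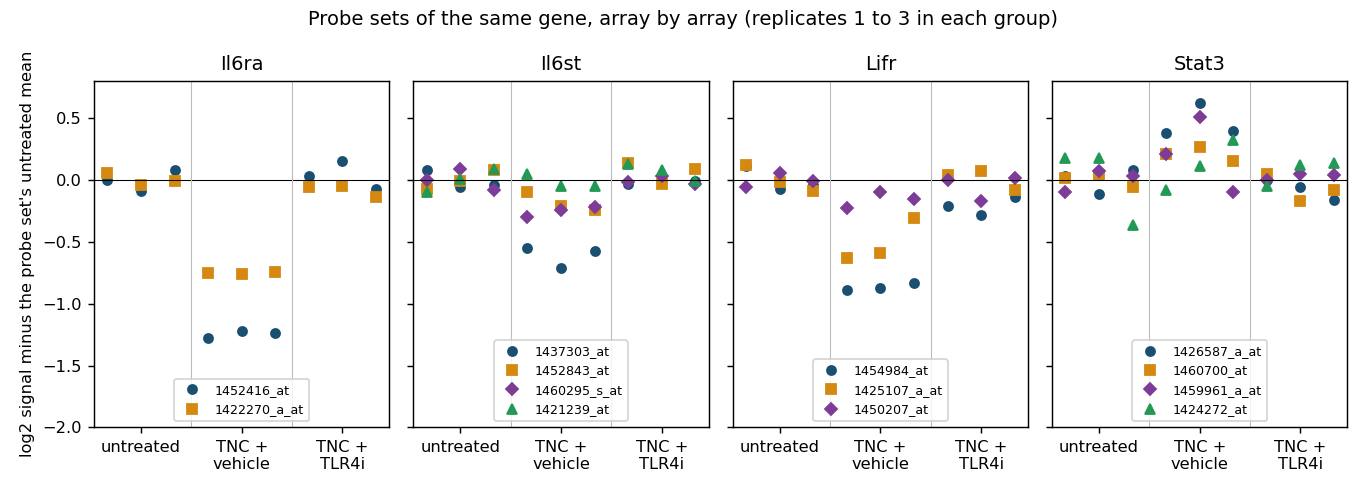
Log2 signal of each probe set of Il6ra, Il6st, Lifr and Stat3, minus that probe set's mean over the untreated arrays, array by array in the 3 groups. Both Il6ra probe sets drop in every TNC + vehicle array, whereas 1 of 4 Il6st and 1 of 3 Lifr probe sets were called.

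The inhibitor was tested against TNC with vehicle. Of the 9 genes 3 were called higher, Il6ra, Lifr and Il6st, and 1 lower, Il6 (4.25% and 4.05% of all genes). Of the 21 probe sets 4 were called higher and 1 lower (2.95% and 3.12% of all probe sets). This comparison uses the same 3 TNC arrays as the one above, so that opposite signs in them are not separate evidence. Il6 fell 4.5-fold with TLR4i (-2.17 ± 0.11 SE; limma adjusted p = 3.52e-08), to signals near the bottom of the arrays' range, where folds are understated. Il6ra was 2.43-fold higher (1.28 ± 0.07 SE; adjusted p = 9.36e-08), and its second probe set 1.59-fold higher (0.67; 9.95e-06). Without TNC replicate 1, the log2 differences were -2.32 for Il6, 1.27 for Il6ra, 0.64 for Lifr and 0.62 for Il6st, and all 4 were still called.

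Lifr was 1.57-fold higher with TLR4i than with TNC alone (0.65 ± 0.07 SE; limma adjusted p = 1.59e-05), and Il6st 1.51-fold higher (0.59 ± 0.07 SE; 4.77e-05). These are close to the 1.5-fold threshold, and the Il6st call was lost after cyclic loess (0.51), with the mean of its probe sets (0.29) and without TNC replicate 2 (0.54), and the Lifr call with the mean of its probe sets (0.43). Stat3 was lower by 0.54 (95% CI -0.72 to -0.36; adjusted p = 0.000354), 1.45-fold and not called, and past 1.5-fold after cyclic loess (-0.64). Lif (0.02), Osm (-0.06), Il11 (-0.11) and Osmr (-0.11) were not called.

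The arrays with TLR4i and TNC were also set against untreated cells, which asks how far each level lay from its start. Of the 9 genes 0 were called in either direction by limma, as were 0 of the 21 probe sets, where 0.0605% of all genes were called higher and 0.198% lower, and of all probe sets 0.0466% and 0.127%. With no adjustment, 2 genes had p under 0.05, and each was lower. These were Il6 (-0.19, 95% CI -0.34 to -0.04; adjusted p = 0.453) and Lifr (-0.21, CI -0.36 to -0.05; adjusted p = 0.408), in each of which all 3 TNC + TLR4i arrays lay below all untreated arrays. The shares of all genes with such a p, or without overlap, were not counted. In both groups Il6 lay below the array median of 6.72 to 6.74. For Lifr the difference of -0.21 is 24.1% of the log2 difference seen with TNC, at 86.6% of the untreated signal. This holds for its brightest probe set alone. The dimmer 1425107_a_at differed by 0.0 (CI -0.16 to 0.16) and 1450207_at by -0.05 (CI -0.20 to 0.11), each overlapping with untreated. Il6ra differed by 0.04 (CI -0.12 to 0.20) and Il6st by -0.01 (CI -0.15 to 0.13), so that a remaining change of 1.5-fold lies outside the intervals of these genes.

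**Figure D3:**
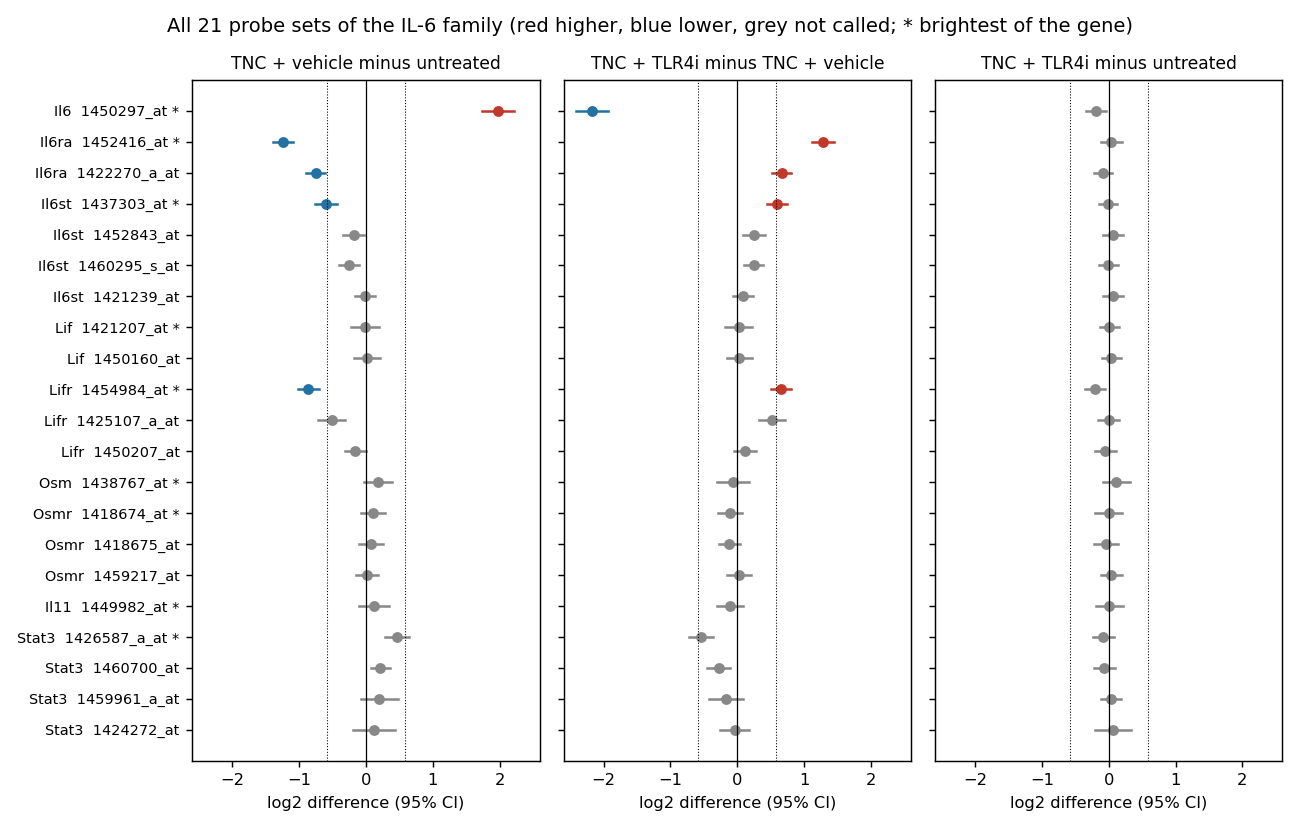
Log2 difference and 95% confidence interval (limma) of all 21 probe sets in the 3 comparisons, with dotted lines at 1.5-fold. With TNC, Il6 lies to the right and 4 receptor probe sets to the left, these positions turn over in TNC + TLR4i against TNC + vehicle, and all 21 intervals lie within the dotted lines for TNC + TLR4i against untreated.

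The other genes of the pathway were described by 8 lists, of 90 genes in all, of which 77 had a probe set named to them alone. With TNC, 13 of the 77 were called higher and 2 lower, beside 3.74% and 4.05% of all genes. With TLR4i against TNC, 2 were called higher and 18 lower, beside 4.25% and 4.05%. Without TNC replicate 1 these counts were 14 and 2 with TNC, and 2 and 17 with TLR4i. Against untreated cells, 0 of the 77 were called with TLR4i and TNC, beside 0.0605% of all genes called higher and 0.198% lower. An unadjusted p under 0.05 was found for 18, 4 of them higher and 14 lower. That share was not counted over all genes, so that these counts have no baseline. Limma's adjusted threshold was passed by 3, all below 1.5-fold, where 0.803% of all genes passed it. These were Il10 (-0.57; adjusted p = 0.00392), an anti-inflammatory cytokine, Ebi3 (-0.41; 0.0452) and the transcription factor Atf3 (0.41; 0.0305).

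Among 4 other measured ligand genes, Ebi3, a subunit of the cytokines IL-27 and IL-35, was called higher with TNC (0.62 ± 0.11 SE; limma adjusted p = 0.00108) and lower with TLR4i (-1.03 ± 0.12; 3.78e-05). Of 4 other receptor chains of the gp130 type 0 were called, although Csf3r, the G-CSF receptor, differed by 0.54 with TNC (adjusted p = 7.13e-05, 1.46-fold). The IL-11 receptor genes and Il27 had no probe set named to them alone. The receptor for IL-6 can be cut from the cell surface, and of 5 genes of this shedding 2 rose with TNC: Timp3 (0.80 ± 0.11; 0.000206), an inhibitor of ADAM17, and Rhbdf2 (0.73 ± 0.06; 5.87e-06), which takes ADAM17 to the surface. The protease gene Adam17 itself differed by 0.45 and was not called with TNC, and fell by 0.61 with TLR4i (adjusted p = 5.42e-05). Adam10, another protease gene of the list, differed the opposite way under 1.5-fold. It was at -0.27 with TNC (limma adjusted p = 0.0192) and 0.32 with TLR4i (0.0125). The list's median was 0.45 with TNC and -0.61 with TLR4i, where the medians of all genes were 0.0063 and 0.002.

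Among 9 JAK and other STAT genes 2 rose with TNC and the same 2 fell with TLR4i. Stat2, which works in interferon signaling rather than under gp130, rose by 1.91 ± 0.11 (limma adjusted p = 1.6e-07) and fell by 2.43 (1.89e-09). Jak2, a kinase that gp130 uses, rose by 1.32 ± 0.06 (5.82e-08) and fell by 1.31 (2.48e-08), whereas Jak1 (0.15) and Tyk2 (0.30) were not called. Of 10 genes of the SHP2, RAS and PI3K arm 0 were called with TNC, and Map2k1, encoding the kinase MEK1, fell with TLR4i (-0.62; 2.57e-05). Past the p threshold with TNC but under 1.5-fold, the adaptor gene Gab2 differed by -0.45 (0.000314) and Ptpn11, which encodes SHP2, by 0.26 (0.0111).

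Of 14 negative regulators 2 rose with TNC, and 3 fell with TLR4i. Socs3, which binds gp130 and blocks its kinases, was at 8.96 in untreated, 10.73 in TNC and 8.74 in TNC + TLR4i cells (log2 means). It rose 3.40-fold (1.77 ± 0.09 SE; limma adjusted p = 6.7e-08) and fell 3.96-fold (-1.99 ± 0.10; 2.33e-08). Socs1, another inhibitor of JAKs, rose by 1.02 (5.45e-06) and fell by 1.15 (1.43e-05), and Socs7 fell by 0.63 with TLR4i (0.000106). The other SOCS genes were not called in either comparison, with Socs5 at -0.37 and Socs2 at 0.15 with TNC. The list medians were 0.28 and -0.29.

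Of 21 genes known as STAT3 targets 5 rose with TNC and 7 fell with TLR4i, and the other members were not called. Saa3, a serum amyloid, led: it rose by 5.19 ± 0.09 (limma adjusted p = 2.11e-11) and fell by 5.18 ± 0.09 with TLR4i (5.89e-12). Socs3 followed, then Lcn2, an iron-trapping protein (1.33 and -1.52), Pim1, a survival kinase (1.17 and -1.35), and Junb, an AP-1 subunit (0.76 and -0.76). Cebpd (-0.64; 0.000822) and Il10 (-0.99; 0.000823) were called lower with TLR4i but not called with TNC (0.46 and 0.42). Saa3, Lcn2, Junb and Socs3 are also known targets of TLR and NF-kB signaling, so that the list does not read STAT3 by itself. Bcl2l1 (-0.05), Myc (0.07), Mcl1 (-0.08) and Birc5 (-0.07), textbook STAT3 targets in tumor cells, were not called with TNC. Other uncalled members passed the p threshold with TNC in either direction. Ccnd1 (-0.49; limma adjusted p = 0.000186) and Fos (-0.24; 0.025) were lower. Bcl3 (0.29), Timp1 (0.39), Hif1a (0.41), Tnfrsf1b (0.42) and Cebpd were higher. The list medians were 0.29 and -0.23.

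Of 12 regulators of Il6 transcription and mRNA decay 2 rose and 2 fell with TNC. Irf1, a transcription factor, rose by 1.32 ± 0.07 (limma adjusted p = 1.53e-07), and Arid5a, which stabilizes Il6 mRNA, by 1.15 ± 0.13 (3.42e-05). Zfp36l1 (-0.93; 1.58e-06), which promotes decay of AU-rich mRNAs, and Rc3h1 (-0.68; 8.94e-05), encoding Roquin-1, another decay factor, fell. With TLR4i all 4 were called the opposite way (-1.6, -1.09, 0.73 and 0.78), and Cebpd fell. Zc3h12a, encoding the Il6 mRNA nuclease Regnase-1, was not called (-0.16), and nor was Zfp36 (0.42; adjusted p = 0.00166), encoding tristetraprolin. Nfkbiz was lower with TNC but under 1.5-fold (-0.46, limma adjusted p = 0.00454), and differed by 0.14 with TLR4i against TNC. The list medians were 0.31 and -0.31.

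**Figure D4:**
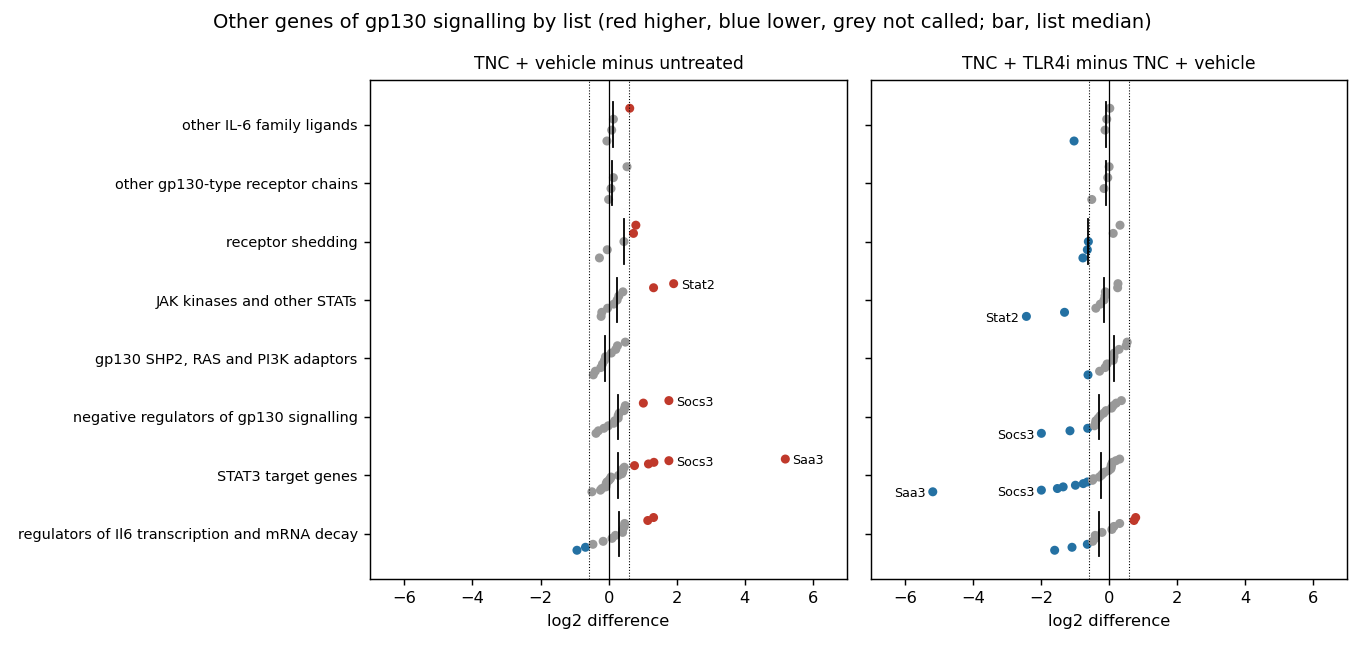
Log2 difference of each measured gene in the 8 lists, with TNC against untreated and with TLR4i against TNC; dots are genes (Socs3 and Cebpd are in a pair of lists each), black bars list medians, and dotted lines 1.5-fold. Saa3, Stat2 and Socs3 lie farthest from 0, at 5.19, 1.91 and 1.77 with TNC, and most list genes lie between the dotted lines.

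The genes most like the called members were sought by Pearson's correlation over the 9 arrays, which fall into groups and therefore give high values to any gene that moved with TNC. Nearest to Il6 were Cmtr1 (r = 0.9986), Cxcl9 (0.998), Cxcl11 (0.9976), Ccl4 (0.9971) and Tnip1 (0.997), among 866 genes with r above 0.95. The mean signal of Cxcl9, a chemokine, was 6.61 in untreated, 10.63 in TNC and 6.52 in TNC + TLR4i cells. Nearest to Il6ra were Klhl6 (0.9968), Rgs10 (0.9965) and Tpcn1 (0.9954), of 951 such genes. Il6st lay nearest to Rnf130 (0.9965), Lamtor4 (0.9943) and Snx8 (0.994), of 999, and Lifr nearest to Kmt2e (0.9933), Igfbp4 (0.9908) and Pip4k2a (0.9899), of 444.

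The genes nearest to Lifr were picked for likeness to its brightest probe set over these same arrays. Their similar order of groups follows from that choice and is not separate evidence on Lifr. Igfbp4, which binds insulin-like growth factors, was at 12.46 in untreated, 11.45 in TNC and 12.24 in TNC + TLR4i cells, and Pip4k2a, a lipid kinase, at 11.48, 10.57 and 11.31. Between the members, the correlation of Il6 was -0.99 with Il6ra, -0.98 with Il6st, -0.93 with Lifr and 0.94 with Stat3, and lay between -0.01 and 0.44 with Lif, Osm, Osmr and Il11. These values describe 9 arrays in 3 groups and carry no test.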

How the data were processed

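Total RNA of 9 BMDM cultures was hybridized to Affymetrix mouse whole-genome expression arrays. The deposited values are log2 signals that the authors made by RMA normalization of the raw arrays in Chipster, and RMA shares information between arrays. Of 45101 probe sets, 64 array controls were left out. The platform annotation gave 1 gene to 34945 of the others, several to 932 and none to 9160, and updating through RefSeq changed 0 symbols. limma 3.58.1 (R 4.3.3; lmFit, eBayes, two-sided) was fitted to the 6 arrays of each pair of groups, as the study's methods describe a two-group empirical Bayes test. The fit was tested on simulated data first. From each list the text names the called genes with the largest changes, up to 4 a comparison, and the other list genes were chosen after their values were seen. For likeness, 5 genes were named for Il6 and 3 for each other called member. The members and lists were chosen with earlier results of these data known. The number of arrays limits the precision. Same-numbered arrays of different groups had deviations that correlated between -0.10 and 0.14 (9 pairs), as against -0.12 to 0.10 for other pairs, so replicate numbers were not used as pairs. No array pair held the same values. Alternatives covered the normalization, filter, variance model, probe set choice, thresholds and each replicate left out.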

Additional observations from a re-analysis of the deposited data

How the results depend on the processing

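Il6 and Il6ra kept their calls and directions with TNC and with TLR4i under all 18 alternatives (Il6 1.90 to 2.13 and -2.32 to -2.09; Il6ra -1.29 to -1.0 and 0.97 to 1.34). A minimum fold of 2, or averaging the probe sets of each gene, left 2 members called in either comparison, Il6 and Il6ra. Replicates left out in turn gave Il6st differences of -0.63 to -0.55 and 0.54 to 0.62. Dropping dim probe sets left no value for Lif and Il11, nor for Il6 with TLR4i against untreated. Of the 77 pathway list genes, 47 and 46 were called without a minimum fold, beside 28.1% and 28.5% of all genes. With a minimum fold of 2 the counts were 9 and 10, and the share of all genes was not counted there. With TLR4i against untreated 3 list genes were called without a minimum fold, beside 0.803% of all genes. With replicates left out between 0 and 2 were called, 2 without untreated replicate 1 and 1 without TNC + TLR4i replicate 3.

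No pairing by replicate number was detected (7 of 18 matches were best with the own number), which does not show that the cultures were unpaired. A replicate block changed no call: the same 4 members and the same 15 and 20 list genes were called with TNC and with TLR4i, with limma's adjusted p for Il6 at 1.72e-06 with TNC.

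Signs turned only in uncalled values near 0. For Lif with TNC the difference was 0.01 with array weights and -0.12 to 0.05 with replicates left out (0.02, 0.04 and 0.05 for those that turned), with TLR4i against TNC -0.04 to 0.13 (-0.04 and -0.03) and with TLR4i against untreated -0.04 to 0.04. Osm with TLR4i against TNC gave -0.16 to 0.03 (0.02 and 0.03). Against untreated, Il6ra gave -0.02 and Il6st 0.03 with averaged probe sets, and -0.02 to 0.09 and -0.04 to 0.03 with replicates left out, and Il11 gave -0.09 to 0.10 (-0.09 and -0.05). The cause was not tested. The untreated signals of Il6, Lif and Il11 lay below the array median of 6.72 to 6.74, which limits what small changes in them can be seen.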

Other observations

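The array controls for RNA ends were read in every array. The 3′ minus 5′ log2 signal of actin was 0.29 to 0.32 in untreated, 0.20 to 0.22 in TNC and 0.30 to 0.37 in TNC + TLR4i arrays, and that of GAPDH ran from -0.35 to -0.26 over all 9. The actin values of the TNC arrays lay below all others, and their part in the differences of the receptor genes was not tested. Among the endothelial markers, Kdr was called higher with TNC and was at 9.0, 9.58 and 9.59 in the TNC arrays, while Pecam1 (7.45, 6.43 and 6.42), Cldn5 (7.72, 6.58 and 6.54) and Emcn (7.41, 6.19 and 6.28) were high in TNC replicate 1 alone of the TNC arrays.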
